A study of Mus musculus with 4 samples.

Results

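The 44 collagen chain genes measured here are those whose symbol is Col, a type number, a and a chain number, out of 22180 genes with a value. They were read by 47 probe sets that carry 1 gene symbol, and a gene with several is represented by its brightest one on average. The genes cover 27 collagen types and fall into 11 fibrillar chains (types I, II, III, V, XI, XXIV and XXVII), 8 basement membrane chains (types IV, XV and XVIII) and 25 other chains. Expression was profiled with single-channel Affymetrix arrays in cell lines grown from ErbB2-driven mammary tumours of the MMTV-NIC model (female, strain FVB). In this model the MMTV promoter, active mainly in mammary epithelium, drives ErbB2 and Cre recombinase from 1 transcript. All 4 arrays share this transgene and strain, and no age is stated for the mice. The cells received the vehicle DMSO (2 arrays) or 2 µM GSK-126, also written GSK126 (2 arrays), for 96 h. Whether the arrays of a group come from different lines is not stated. GSK126 inhibits EZH2, the enzyme that places the repressive histone mark H3K27me3, and the comparison records the transcriptional response to it.

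Collagens are mostly secreted proteins in which 3 chains wind around each other into a triple helix. Fibrillar collagens assemble into the banded fibres of connective tissue, type IV collagen forms the sheet-like network of basement membranes, and smaller types sit on fibrils, anchor epithelia or span the cell membrane. In the mammary gland the fibrillar chains are mainly products of stromal fibroblasts, while epithelial cells rest on a basement membrane to which they contribute. The chains of a type often have to be made together because the helix is built from different gene products.

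No collagen chain gene passed the threshold, an adjusted p under 0.05 in limma with Benjamini-Hochberg adjustment over all genes, where 0.433% of all genes passed (0.261% as higher and 0.171% as lower). At an unadjusted p under 0.05, 3 chains were higher and 1 was lower with GSK126, or 4 of 44 (9.09%), against 10.6% of all genes (4.64% higher and 5.93% lower). The lower one was Col9a3, and the higher ones were Col12a1, Col20a1 and Col11a1. The median change over the 44 chains was 0.03 on the log2 scale (GSK126 minus DMSO, interquartile range -0.05 to 0.15), against -0.01 over all genes, and 24 chains had a higher and 20 a lower mean with GSK126. The median changes were 0.03 for fibrillar, 0.06 for basement membrane and 0.0002 for other chains, and each was smaller than the pooled SD between replicate arrays of that class's median (0.15, 0.10 and 0.13).

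The precision of these differences comes from 2 arrays a group. The half-width of the unadjusted 95% interval of a chain's change had a median of 0.36 and ran from 0.21 to 0.54. For 42 of the 44 chains the interval lay within a 2-fold change (1 on the log2 scale) in either direction, and for 25 within 0.5. The exceptions to the former were Col12a1, whose interval reached 1.03, and Col14a1, whose interval reached 1.01. A p above the threshold does not show that a chain was equal in both groups. The p-values rest only on the spread between these arrays, with limma drawing each gene's variance in part from that of all genes. The labels do not say whether the replicates are separate cultures.

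**Figure D1:**
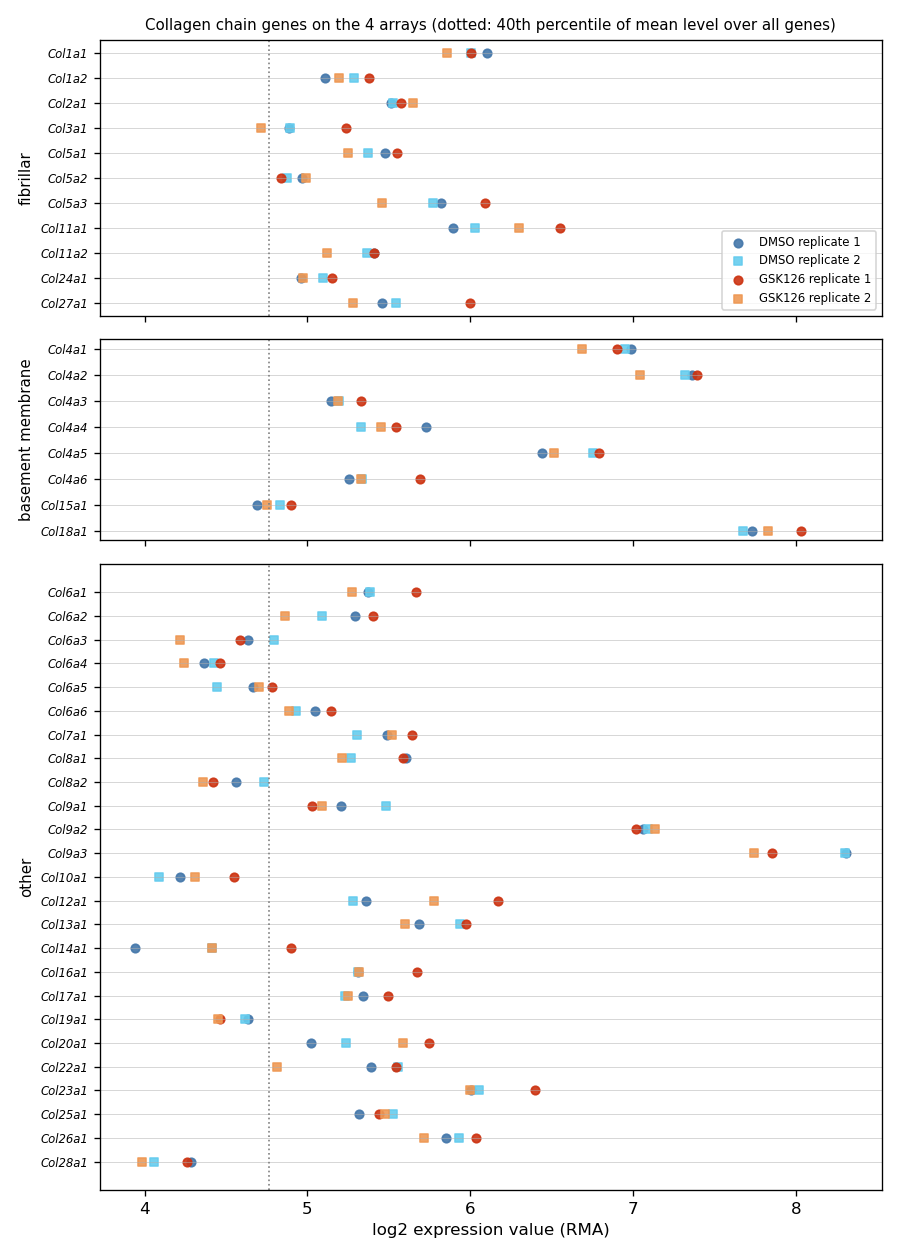
Log2 expression value (RMA) of each of the 44 collagen chain genes on the 4 arrays, by class; each symbol is 1 array and the dotted line marks 4.77, the 40th percentile of mean level over all genes. For 29 of the 44 chains the GSK126 and DMSO values overlap, and GSK126 replicate 1 lies to the right of GSK126 replicate 2 for 39 chains.

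The arrays carried the marks of epithelial cells. Of 13 epithelial markers measured, 12 were at or above the dim limit in at least 1 group, among them Epcam (10.62 and 10.62 in DMSO, 10.44 and 10.56 with GSK126) and Krt18 (11.65 and 11.67, then 11.63 and 11.71). The dim limit is 4.77, the value that 40% of genes do not reach on average, and it lies close to 4.90, the 95th percentile of 1105 olfactory receptor genes. Of 14 fibroblast markers, 6 were dim in both groups, including Dcn, Lum, Fap and Dpt, and 8 were dim in at least 1 group. Another 6 had a mean above 4.90, among them Postn (5.88 and 6.31, then 6.77 and 6.64) and S100a4 (6.06 and 5.93, then 6.13 and 5.89). The mean level of the list was 4.79 and 4.68 in DMSO and 4.87 and 4.77 with GSK126. None of these 14 passed the threshold in limma, and the 3 with an unadjusted p under 0.05 (Postn, Pdgfra and Thy1) were all higher, or 21.4% against 10.6% of all genes. Of the 14, 10 had a higher and 4 a lower mean with GSK126, among the latter Twist2 (-0.47) and Dcn (-0.29). The part of these markers in the chain values was not tested. In such bulk RNA, fewer cells of a type and less RNA per cell cannot be told apart. Array medians over all probe sets were 4.74 and 4.73 in DMSO and 4.79 and 4.78 with GSK126, so both GSK126 medians were the higher. Correlations between arrays ran from 0.981 to 0.988. Ezh2 itself was at 9.47 and 9.58 in DMSO and at 9.37 and 9.29 with GSK126 (adjusted p = 0.499 in limma); as the drug blocks the protein, this does not check the labels.

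Of the 44 chains, 35 had a mean above the olfactory receptor limit of 4.90, and 8 were dim in both groups, all of them outside the fibrillar and basement membrane classes (Col6a3, Col6a4, Col6a5, Col8a2, Col10a1, Col14a1, Col19a1 and Col28a1). Col15a1 was dim in DMSO, at 4.76, and not with GSK126, at 4.83. For dim genes the size of a change is uncertain.

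Promoter sequences were looked up because the drug's target acts on chromatin and its mark is often found at genes with CpG-rich promoters. RefSeq promoter windows (250 bases before to 50 after the start, GRCm38.p6) were matched for 35 of the 44 chain genes, 1 window a gene. The sequences, in lower case with each CpG in capitals, belong to Col11a1 and Col20a1, which were higher at an unadjusted p under 0.05, to Col9a2, the partner of Col9a3 in type IX collagen, and to Col8a2, a CpG-rich contrast. They were chosen after the values were seen, and only bases before the start are printed.
Col11a1, GRCm38.p6 chr3:114030290-114030478, plus strand: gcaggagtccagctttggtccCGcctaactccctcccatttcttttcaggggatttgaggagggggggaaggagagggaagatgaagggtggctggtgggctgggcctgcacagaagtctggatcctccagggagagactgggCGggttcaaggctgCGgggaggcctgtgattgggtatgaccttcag
Col20a1, GRCm38.p6 chr2:180986285-180986534, plus strand: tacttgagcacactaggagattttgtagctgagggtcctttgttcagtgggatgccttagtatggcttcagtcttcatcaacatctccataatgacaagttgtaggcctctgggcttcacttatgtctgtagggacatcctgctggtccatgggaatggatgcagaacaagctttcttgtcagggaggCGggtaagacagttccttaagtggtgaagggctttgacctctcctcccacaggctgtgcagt
Col9a2, GRCm38.p6 chr4:121039316-121039565, plus strand: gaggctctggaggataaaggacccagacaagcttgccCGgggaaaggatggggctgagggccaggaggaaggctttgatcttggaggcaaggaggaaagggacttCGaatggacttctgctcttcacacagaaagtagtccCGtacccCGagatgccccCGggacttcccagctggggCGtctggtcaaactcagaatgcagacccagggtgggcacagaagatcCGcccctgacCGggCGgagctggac
Col8a2, GRCm38.p6 chr4:126286544-126286793, plus strand: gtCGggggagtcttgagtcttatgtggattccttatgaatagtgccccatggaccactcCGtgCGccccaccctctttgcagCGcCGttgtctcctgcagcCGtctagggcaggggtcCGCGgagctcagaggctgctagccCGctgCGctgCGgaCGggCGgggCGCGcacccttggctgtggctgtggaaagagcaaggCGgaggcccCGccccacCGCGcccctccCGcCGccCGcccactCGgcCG

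The Col11a1 stretch of 189 bases, which stops at the outermost annotated base of the gene, held 3 CpG and the Col20a1 stretch of 250 bases held 1. The Col9a2 and Col8a2 stretches, of 250 bases each, held 9 and 24. As the Col11a1 stretch is shorter, its count is not on the same footing. In the whole 300-base windows Col11a1 had 9 CpG, close to the 10 of Col9a2, while Col20a1 had 1 and Col8a2 32. The start used for Col20a1 lies inside the longest annotated extent of that gene. Across the whole windows, CpG observed over expected had a median of 0.47 in the 35 chain genes and 0.38 in all 32851 windows. The chain genes had 38 windows before 1 was kept for each. All windows were counted without such a choice, so the 2 sets were not picked alike. A ratio above 0.6 was found for 11 of the 35 (31.4%, against 35.8% of all windows), 4 of 8 fibrillar, 2 of 7 basement membrane and 5 of 20 other chains.

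The 2 basement membrane chains with CpG-rich windows were Col4a1 and Col4a2, whose starts lie 21 bases apart on opposite strands. Their windows had 37 and 33 CpG and overlap, so they are not separate stretches. Col4a5 and Col4a6, also on opposite strands, start 1343 bases apart. Among the 11 chain genes with a CpG-rich window, 3 had a higher mean with GSK126, and the median change was -0.03 (range -0.26 to 0.17). Among the 24 others, 17 had a higher mean, and the median was 0.07 (range -0.31 to 0.54). Over all genes 48.0% had a higher mean. A left-out array turned signs in both sets. In the CpG-rich set these included Col23a1, Col25a1 and Col27a1, the 3 with a higher mean. Across these 35 genes, which share the same 4 arrays, the ratio and the change had a Pearson r of -0.21, given as a description. Col9a3 and Col12a1 are among the 9 chain genes that were not matched.

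**Figure D2:**
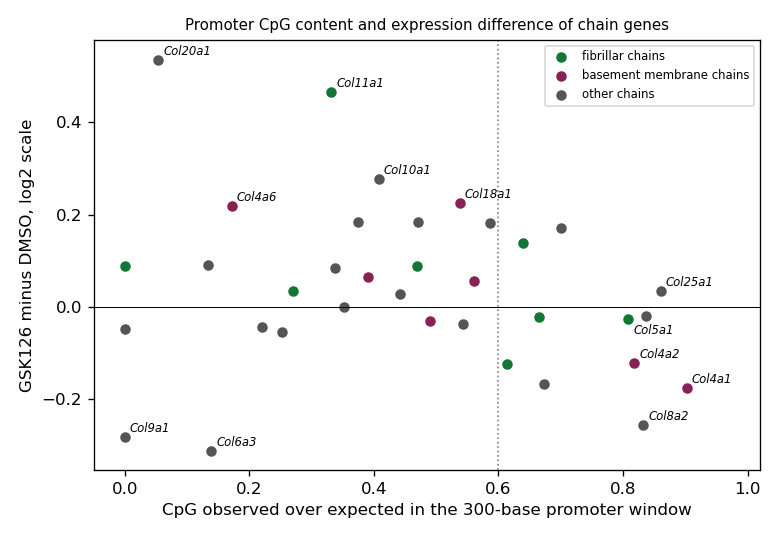
CpG observed over expected in the 300-base promoter window (horizontal) against the change, GSK126 minus DMSO on the log2 scale (vertical), for the 35 chain genes with a RefSeq window; each point is a gene, coloured by class, and the dotted line marks a ratio of 0.6. Of the 11 genes to the right of the line, 3 lie above 0, and of the 24 to its left, 17 do. Over all genes 48.0% had a change above 0.

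A search of both strands of the windows for short promoter motifs gave the following shares. The GC box GGGCGG, which itself contains a CpG, was present in 22 of the 35 chain windows (62.9%) and in 35.7% of all windows. The CCAAT box was present in 12 (34.3%, against 37.4%), the TATA box TATAAA in 5 (14.3%, against 13.62%) and the AP-1 site TGANTCA in 1 (2.86%, against 7.81%). Here too the chain share takes 1 window a gene and the other share takes all windows. These counts describe letters in the windows and not bound sites.

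Among fibrillar chains, the type I genes encode the main collagen of skin, bone and tumour stroma. Col1a1 was at 6.11 and 6.004 on the DMSO arrays and at 6.004 and 5.86 on the GSK126 arrays, a change of -0.12 with a 95% interval of -0.41 to 0.17. Its partner Col1a2 was at 5.11 and 5.28 and then at 5.38 and 5.19, a change of 0.09 (-0.26 to 0.44). For Col1a2 the groups overlapped, and for Col1a1 they met at 6.004. A dimmer probe set of Col1a2 gave a change of 0.17.

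Type III collagen co-assembles with type I in soft tissue. Its gene Col3a1 was at 4.88 and 4.89 in DMSO, and the GSK126 arrays lay on either side, at 5.24 and 4.71. Type V collagen nucleates type I fibrils. Col5a1 was at 5.48 and 5.37 and then at 5.55 and 5.25, Col5a2 at 4.97 and 4.88 and then at 4.84 and 4.99. Col5a3 had the widest gap of the 3 between GSK126 arrays, at 6.09 and 5.46 against 5.82 and 5.77 in DMSO. The changes of these 4 genes lay between -0.03 and 0.09, and their groups overlapped. The second probe set of Col5a1 gave 0.12 where the first gave -0.03.

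Type XI collagen, best known from cartilage fibrils, gave the largest difference among fibrillar chains. Col11a1 was at 5.89 and 6.03 in DMSO and at 6.55 and 6.30 with GSK126, so that both GSK126 values lay above both DMSO values. Its change was 0.47 (SE 0.13, 1.38-fold, unadjusted p = 0.00876, adjusted p = 0.292 in limma), and it did not pass the threshold. Its partner Col11a2 was at 5.41 and 5.36 and then at 5.41 and 5.12, a change of -0.12. The log2 ratio of Col11a1 to Col11a2 was 0.48 and 0.66 on the DMSO arrays and 1.14 and 1.18 on the GSK126 arrays, a difference of 0.59 that was not tested.

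The remaining fibrillar chains, Col2a1, Col24a1 and Col27a1, had changes of 0.09, 0.03 and 0.14, and that of Col27a1 ran from -0.22 to 0.50 without 1 array. Col2a1, the main collagen of cartilage, was higher on both GSK126 arrays (5.57 and 5.65) than on both DMSO arrays (5.51 and 5.52). In all, 2 of the 11 fibrillar chains had groups that did not overlap. Over all 44 chains this held for 15, 9 higher and 6 lower, or 34.1%, against 40.1% of all genes, 18.2% higher and 21.8% lower.

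Basement membrane chains held no gene at an unadjusted p under 0.05. Col4a1 and Col4a2, whose products form the common type IV network, were at 6.99 and 6.95 (Col4a1) and 7.36 and 7.32 (Col4a2) in DMSO. With GSK126, Col4a1 was at 6.90 and 6.69, below both DMSO values, and Col4a2 was at 7.39 and 7.05, on both sides of them. The changes were -0.18 (interval -0.44 to 0.09) and -0.12 (-0.42 to 0.18). Their log2 ratio varied little, from -0.49 to -0.36 over the 4 arrays.

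The minor type IV chains are found in specialised basement membranes such as those of the kidney. Col4a3 was at 5.15 and 5.19 in DMSO and at 5.33 and 5.19 with GSK126. Col4a4 was at 5.73 and 5.33 and then at 5.55 and 5.45. In both the groups overlapped, with changes of 0.09 and -0.03. Col4a5 was at 6.44 and 6.75 in DMSO and at 6.79 and 6.52 with GSK126. Col4a6 was at 5.26 and 5.33 and then at 5.69 and 5.33, a change of 0.22 in which GSK126 replicate 2 lay within the DMSO values.

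Type XV and XVIII collagens link basement membranes to the matrix around them, and a fragment of type XVIII is the vessel growth inhibitor endostatin. Col18a1 was at 7.73 and 7.68 in DMSO and at 8.03 and 7.83 with GSK126, the largest difference in this class (0.23, interval -0.02 to 0.47, unadjusted p = 0.0627, adjusted p = 0.501 in limma). Both GSK126 values lay above both DMSO values, and after quantile normalization between arrays Col18a1 joined the chains at an unadjusted p under 0.05. Col15a1 had a change of 0.06.

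**Figure D3:**
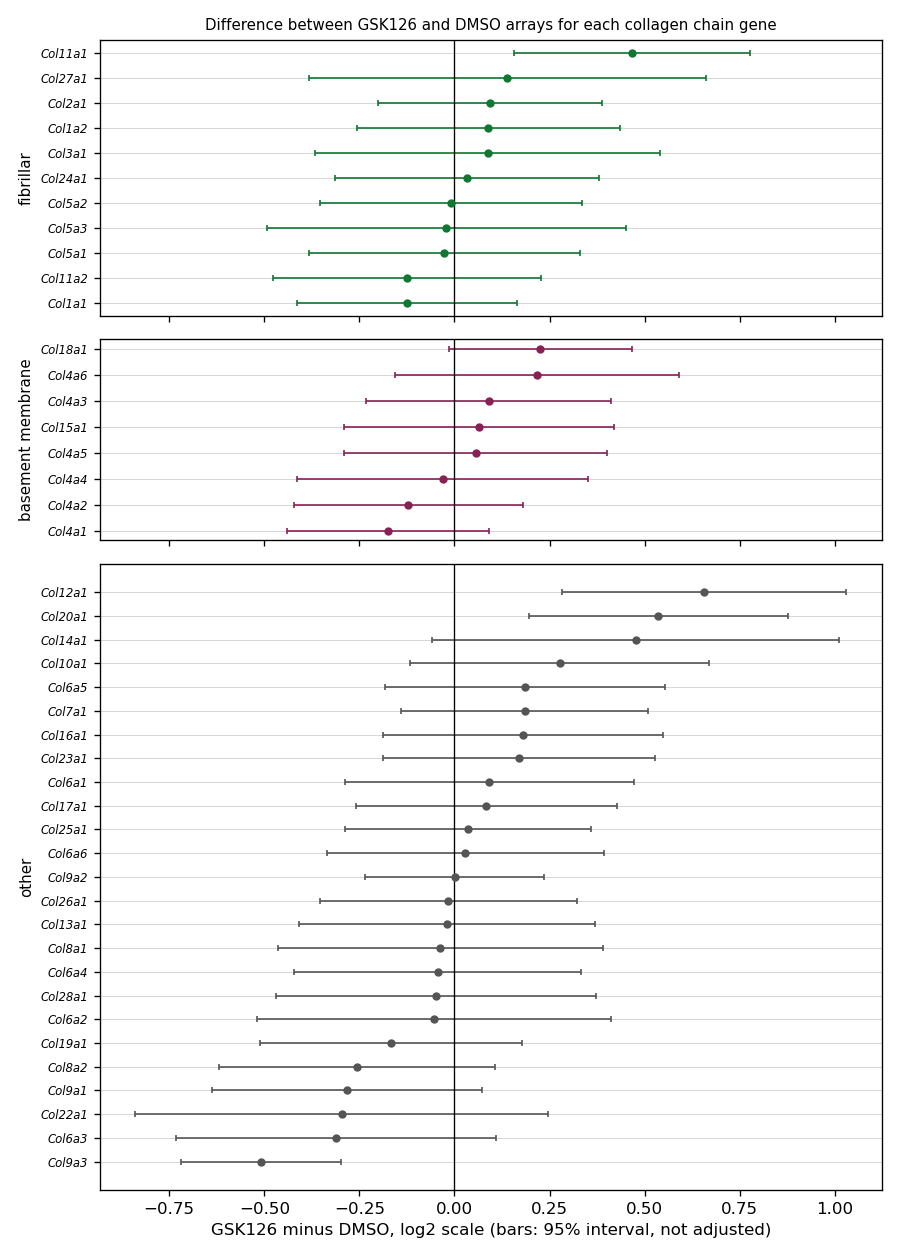
Change of each collagen chain gene, GSK126 minus DMSO on the log2 scale (horizontal), by class and sorted by size; points are limma estimates from 2 against 2 arrays and bars are unadjusted 95% intervals. The intervals of 4 chains exclude 0 (Col9a3, Col11a1, Col12a1 and Col20a1), and those of 40 include it.

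Among the other chains, 9 genes encode fibril-associated collagens with interrupted triple helices (FACIT). They held 3 of the 4 chains at an unadjusted p under 0.05, with both signs (33.3% of the 9, against 10.6% of all genes). These collagens sit on the surface of fibrils. Col9a3, a chain of type IX collagen, was lower on both GSK126 arrays (7.85 and 7.74) than on both DMSO arrays (8.31 and 8.30). Its change was -0.51 (SE 0.09, interval -0.72 to -0.30, unadjusted p = 0.000592, adjusted p = 0.0869 in limma), the smallest p among the chains. With each array centred on its median it was -0.56 with an adjusted p of 0.050 in limma, just under the threshold. Over all alternatives except left-out arrays the adjusted p in limma ran from 0.050 to 0.397. Without 1 array the change of Col9a3 ran from -0.56 to -0.46, and it did not pass.

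The type IX molecule is built from 3 different chains, and their genes had unlike values. Col9a2 was at 7.06 and 7.09 in DMSO and at 7.02 and 7.13 with GSK126, a change of 0.0002 with an interval of -0.23 to 0.23. Col9a1 was at 5.20 and 5.48 and then at 5.03 and 5.09, a change of -0.28 that had an unadjusted p of 0.103 in limma. The log2 ratio of Col9a3 to Col9a2 was 1.25 and 1.21 on the DMSO arrays and 0.83 and 0.61 on the GSK126 arrays, a difference of -0.51 that was not tested.

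Col12a1 encodes type XII collagen, a fibril-surface chain of tendons and other stressed tissue. It was at 5.36 and 5.28 in DMSO and at 6.17 and 5.78 with GSK126, so that both GSK126 arrays were higher. The change was 0.66 (SE 0.16, 1.58-fold, unadjusted p = 0.00389, adjusted p = 0.217 in limma), the largest of all chains with all 4 arrays. Without 1 array it ran from 0.46 to 0.85. Without GSK126 replicate 1 it was smaller in size than those of Col22a1 (-0.66), Col9a3 (-0.56) and Col6a3 (-0.50). Col20a1, a relative of it, was at 5.02 and 5.24 and then at 5.75 and 5.59, a change of 0.54 (SE 0.15, unadjusted p = 0.00695, adjusted p = 0.267 in limma). Col14a1, another close relative, is dim, and its highest DMSO value and lowest GSK126 value were both 4.42 (change 0.48, interval -0.06 to 1.01). Of the remaining FACIT genes, Col16a1 had a change of 0.18, Col19a1 of -0.17 and Col22a1 of -0.30, the last with a range of -0.66 to 0.070 without 1 array. The median of the 9 FACIT genes was 0.0002, with 5 higher and 4 lower means.

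Type VI collagen forms beaded filaments near basement membranes, from Col6a1, Col6a2 and a further chain. Col6a1 was at 5.37 and 5.38 in DMSO and at 5.66 and 5.27 with GSK126. Col6a2 was at 5.29 and 5.09 and then at 5.40 and 4.86. In both, the GSK126 arrays lay on either side of the DMSO arrays. Col6a3, dim in both groups, was at 4.63 and 4.80 and then at 4.59 and 4.22 (change -0.31, interval -0.73 to 0.11). The alternatives to it, Col6a4, Col6a5 and Col6a6, had changes of -0.04, 0.18 and 0.03. Of these, Col6a5 was at 4.67 and 4.45 in DMSO and at 4.78 and 4.70 with GSK126, Col6a4 at 4.37 and 4.43 and then at 4.46 and 4.24, and Col6a6 at 5.05 and 4.93 and then at 5.15 and 4.89.

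Chains tied to epithelial attachment showed small differences. Col17a1 encodes the transmembrane collagen of hemidesmosomes, which hold basal epithelial cells to their basement membrane. It was at 5.34 and 5.23 in DMSO and at 5.49 and 5.25 with GSK126, a change of 0.08 (interval -0.26 to 0.43) with overlapping groups. Col7a1, the anchoring fibril chain, was at 5.49 and 5.30 and then at 5.65 and 5.52, a change of 0.18 in which the GSK126 values lay above the DMSO values. The other transmembrane chains Col13a1, Col23a1 and Col25a1 had changes of -0.02, 0.17 and 0.04. The network-forming chains Col8a1, Col8a2 and Col10a1 had changes of -0.04, -0.26 and 0.28, and Col26a1 and Col28a1 of -0.02 and -0.05.

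The 2 GSK126 arrays differed from each other across the chains. GSK126 replicate 1 was above GSK126 replicate 2 for 39 of the 44 chains (88.6%), against 56.7% of all genes, with a median gap of 0.25 against 0.03. The exceptions were Col2a1, Col5a2, Col9a1, Col9a2 and Col25a1. Relative to the DMSO mean, the chains had a median of 0.15 on GSK126 replicate 1, where 35 were higher, and of -0.09 on GSK126 replicate 2, where 15 were higher. Over all genes these medians were 0.005 and -0.03. The 2 DMSO arrays showed no such gap, with 20 of 44 chains above on replicate 1 and a median gap of -0.01.

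This gap was present in each class, at 9 of 11 fibrillar, 8 of 8 basement membrane and 22 of 25 other chains. Among pathway lists it held for 17 of 19 basement membrane partners, 15 of 21 folding and modification enzymes, 11 of 14 proteinases and crosslinking enzymes, 10 of 15 fibril-associated proteins, 7 of 9 receptors and 7 of 9 degrading proteases. Among marker lists it held for 11 of 14 fibroblast, 8 of 10 endothelial, 8 of 10 pericyte and smooth muscle, 5 of 7 adipocyte, 7 of 13 immune and 7 of 13 epithelial markers. The part of these other cell types in the gap was not tested. GSK126 replicate 2 also had the lowest correlations with the other arrays, 0.981 to 0.983, against 0.986 to 0.988 among the other 3, and the part of this in the gap was not tested. The median over the 44 chains was 0.15 without GSK126 replicate 2 and -0.09 without GSK126 replicate 1. The count of chains at an unadjusted p under 0.05 was 9 (8 higher, 1 lower; 20.5%) without GSK126 replicate 2, where 7.98% of all genes had such a p. It was 5 (2 higher, 3 lower; 11.4%, against 9.47% of all genes) without GSK126 replicate 1, and 2 (4.55%, against 8.16%) without DMSO replicate 1. Col9a3 and Col12a1 were in this count whichever array was left out, Col20a1 was lost without DMSO replicate 1, and Col11a1 without DMSO replicate 1 or GSK126 replicate 1.

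**Figure D4:**
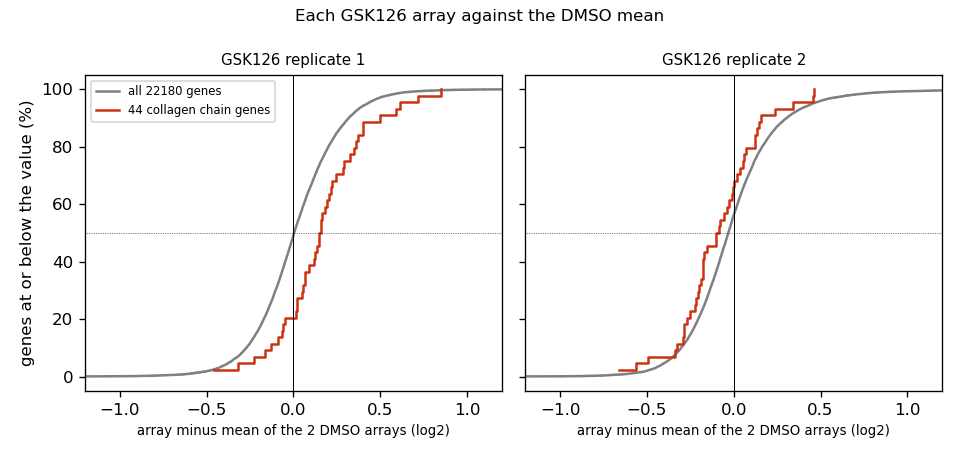
Cumulative share of genes (vertical, %) by the difference between a GSK126 array and the mean of the 2 DMSO arrays (horizontal, log2 scale), for the 44 collagen chain genes and all 22180 genes. The chain curve lies to the right of the curve of all genes for most of its length on GSK126 replicate 1 (median 0.15 against 0.005) and crosses the dotted 50% line to the left of it on GSK126 replicate 2 (median -0.09 against -0.03).

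The enzymes that fold and modify collagen chains were described next to the chains. Of 23 listed, 21 were measured, with a median change of -0.11 and 0 past the threshold in limma. At an unadjusted p under 0.05, 2 were higher and 4 lower (28.6%), where over all genes the share was 10.6%. Plod2 hydroxylates lysines that later form crosslinks. It was at 5.13 and 4.74 in DMSO and at 5.91 and 6.03 with GSK126, a 2.06-fold difference (adjusted p = 0.0584 in limma). It passed the threshold in limma with a robust prior (adjusted p = 0.0497) and without dim genes (0.0274). It did not pass without the intensity trend, where the adjusted p was the highest over the fits of all 4 arrays (0.235). Without 1 array its change ran from 0.84 to 1.24, and it did not pass.

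The prolyl 3-hydroxylase gene P3h2, active on basement membrane collagen, had a change of -0.52 (8.13 and 8.09, then 7.66 and 7.52, adjusted p = 0.0931 in limma). The prolyl 4-hydroxylase stabilises the triple helix. Its alpha subunit genes P4ha1, P4ha2 and P4ha3 had changes of 0.31, 0.24 and 0.29 (adjusted p = 0.312, 0.508 and 0.534 in limma), and its beta subunit gene P4hb, which also serves other proteins, had -0.27 (adjusted p = 0.365 in limma). In each of these 4 genes the groups did not overlap, as held for 40.1% of all genes. P4hb ran from -0.36 to -0.19 without 1 array. P4ha2 and P4ha3 were named after their values were seen.

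Procollagen proteinases and crosslinking enzymes had a median change of -0.07 over 14 of 16 listed genes. Of these, 1 was past the threshold and 13 were not, where 0.433% of all genes passed. At an unadjusted p under 0.05, 2 were higher and 2 lower (28.6%, against 10.6% of all genes). Lox, which crosslinks collagen and is dim in DMSO, rose from 4.10 and 3.94 to 5.05 and 5.06 (adjusted p = 0.0467 in limma). Its relative Loxl3 had a change of -0.36, with 8.21 and 8.19 in DMSO and 7.86 and 7.82 with GSK126 (adjusted p = 0.210 in limma). Adamts14, a protease that trims the amino end of procollagen, was at 6.49 and 6.46 and then at 5.89 and 5.63 (change -0.72, adjusted p = 0.0989 in limma). Over the alternatives fitted to all 4 arrays its adjusted p ran from 0.0499, without dim genes, to 0.291, without the trend, and with its probe sets averaged the change was -0.51 (adjusted p = 0.283 in limma). Pcolce2, an enhancer of trimming at the other end, was at 5.54 and 5.49 and then at 5.98 and 6.44 (change 0.70, and 0.46 to 0.93 without 1 array).

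Among proteins that bind fibrils, 15 of 16 were measured and had a median change of 0.06. The fibronectin gene Fn1 rose from 5.44 and 5.32 to 6.82 and 6.48, a change of 1.27 (adjusted p = 0.0240 in limma), and 14 did not pass. Thbs1, an adhesive matrix protein, was at 11.37 and 11.52 in DMSO and at 11.95 and 11.91 with GSK126 (adjusted p = 0.0891 in limma; from 0.0394, without dim genes, to 0.420, without the trend, over the alternatives fitted to all 4 arrays). The changes of Postn and Fmod were 0.61 and 0.32, and without 1 array they ran from 0.39 to 0.82 and from 0.18 to 0.46. With its probe sets averaged Fmod was at 0.0045 (adjusted p = 0.998 in limma).

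Basement membrane partners, mainly laminins, had a median of -0.003 over 19 of 20 listed. In limma 0 passed the threshold, and 1, which was lower, had an unadjusted p under 0.05 (5.26%, against 10.6% of all genes). It was Frem2 (-0.37, dim in both groups), followed by Lama4 (-0.20), Lama3 (0.28) and Lamb3 (-0.17). Without 1 array these 3 ran from -0.26 to -0.13, from 0.13 to 0.44 and from -0.28 to -0.064. Collagen receptors had a median of -0.01 over 9 of 10 listed. None passed in limma, and 1 had an unadjusted p under 0.05 (11.1%, against 10.6% of all genes). It was Ddr1, a receptor tyrosine kinase for collagen, at 9.93 and 9.92 in DMSO and 9.75 and 9.73 with GSK126 (adjusted p = 0.462 in limma). With the probe sets of a gene averaged, the change of Ddr1 was -0.0011 (adjusted p = 0.999 in limma). The count of 1 was 0 under that alternative, without the trend, with a robust prior, after quantile normalization and without either GSK126 array. Mrc2, the receptor that takes up collagen fragments, had a change of 0.28, and the integrin genes Itga2 and Itgb1 of 0.19 and 0.08; without 1 array Itga2 ran from 0.075 to 0.30.

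Of 9 collagen-degrading proteases measured among 10 listed, 1 passed the threshold, where 0.433% of all genes passed. The same 1 was the only one at an unadjusted p under 0.05 (11.1%, against 10.6% of all genes). Mmp13, a collagenase that cuts fibrillar collagen and was dim in DMSO, rose from 4.20 and 3.93 to 5.74 and 5.68 (adjusted p = 0.0122 in limma). The others had adjusted p of at least 0.681, among them the membrane-bound collagenase gene Mmp14 (-0.12), Mmp9 (0.22) and Ctsk (0.22). Without 1 array Mmp9 ran from 0.10 to 0.34 and Ctsk from 0.019 to 0.42. The calls of Lox, Fn1 and Mmp13 ended without the intensity trend (adjusted p 0.168, 0.177 and 0.114 in limma) and on leaving out any 1 of the 4 arrays. Without 1 array their adjusted p ran from 0.169 to 0.446 for Lox, from 0.128 to 0.210 for Fn1 and from 0.0925 to 0.233 for Mmp13.

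**Figure D5:**
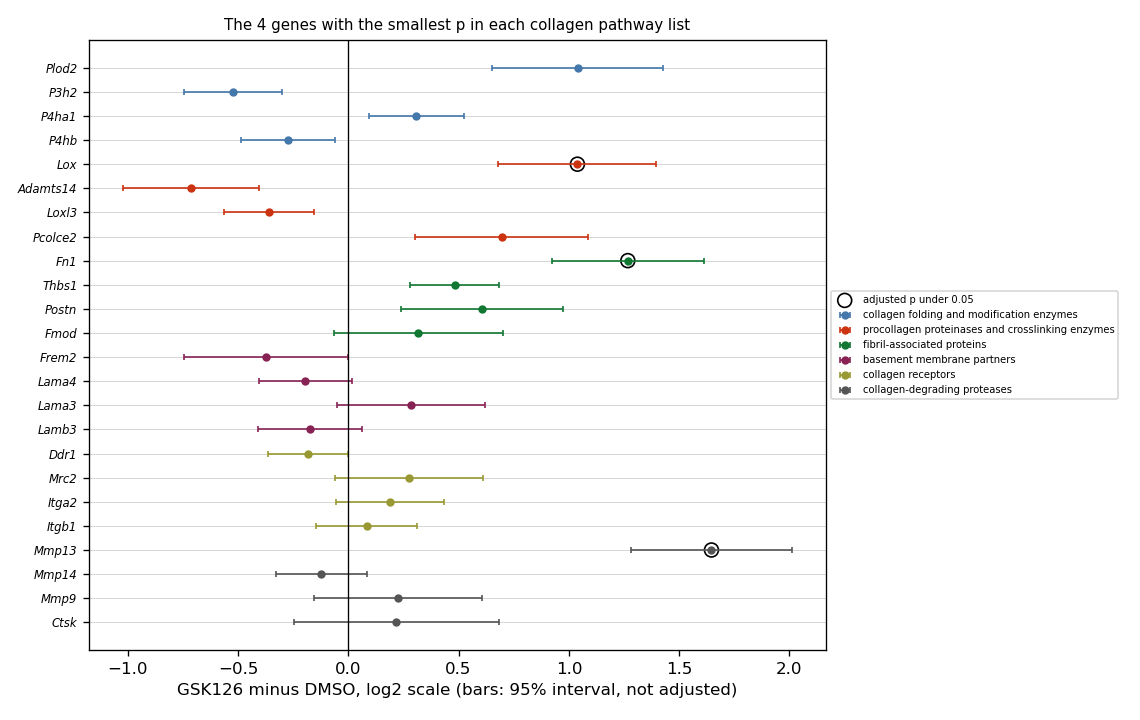
Change, GSK126 minus DMSO on the log2 scale (horizontal), of the 4 genes with the smallest p in each of 6 lists of collagen pathway genes; points are limma estimates from 2 against 2 arrays, bars are unadjusted 95% intervals, and circles mark an adjusted p under 0.05. The circled genes are Lox (1.04), Fn1 (1.27) and Mmp13 (1.65).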

How the data were processed

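Gene expression was measured in 4 samples, 2 per group by their titles. The deposited values are on a log2 scale and were made by the authors with robust multi-array averaging in Expression Console, core-exon analysis, per the labels. The submitters' processing notes also list Affymetrix Power Tools. Its version, the genome build and scan batches are not given in the sources used here. The precision is limited by the number of arrays.

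Of 41345 probe sets, 23521 carried 1 symbol in the platform annotation, 1814 several and 16010 none; 1 with several names a collagen chain and was not used. Entrez identifiers matched 23328 to RefSeq (GRCm38.p6), the source of the promoter windows, and updated 0 symbols. Closely similar transcripts can share probes.

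All 22180 genes were fitted with limma 3.58.1 in R 4.3.3 (intensity trend, two-sided, Benjamini-Hochberg, threshold 0.05). An exact permutation of 2 against 2 arrays cannot give a p below 0.333. The fit was tested on 10 simulations of 22180 genes drawn from the fitted prior. It found 65.2% of genes changed by 1 and 99.3% changed by 2 on the log2 scale, with 4.62% false calls. These rates describe draws from that prior, and whether they hold for the 4 arrays was not tested.

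The members and lists were chosen with earlier results of these data known. Values on every array are given for chains at an unadjusted p under 0.05, chains of types I, III, IV, V, VI, XVII and XVIII and the extremes of each class; of each pathway list the 4 genes of smallest p are named. Other chains were added so that every member is accounted for. Alternatives were no trend, a robust prior, omission of dim genes, the mean of a gene's probe sets, centred arrays, quantile normalization, a replicate block, and each array left out.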

Additional observations from a re-analysis of the deposited data

How the results depend on the processing

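Among the alternatives tried, no chain passed the threshold in limma except Col9a3 with centred arrays, where the count was 1. With centred arrays 4 chains had an unadjusted p under 0.05, as in the fit reported (9.09%, against 13.2% of all genes). Centring and quantile normalization turned the median over all chains from 0.03 to -0.02 in both cases, within the spread between replicates. The median over all genes moved as well, from -0.008 to -0.06 with centring and to -0.02 with quantile normalization. Leaving out 1 array gave 2 to 9 chains at an unadjusted p under 0.05, 19 to 37 chains whose groups do not overlap (against 15 with all arrays; a group of 1 array makes overlap rarer), and medians of -0.092 to 0.15 over all chains, -0.18 to 0.13 over fibrillar, -0.043 to 0.15 over basement membrane and -0.10 to 0.16 over other chains. Leaving out genes below the 40th percentile removed 8 chains, and the count whose groups do not overlap was then 10 of 36. The share of all genes whose groups do not overlap was counted only for the fit reported. The counts under the alternatives thus have no such share beside them.

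Over all genes, 96 passed the threshold in limma (58 higher, 38 lower; with centred arrays 55 higher, 62 lower). The count was 0 without the intensity trend (1964 at an unadjusted p under 0.05), 149 without dim genes, 10 with the replicate number as a block, and 0 to 4 without 1 array (1771 to 2100 at an unadjusted p under 0.05). Arrays with the same replicate number did not deviate together (r = -0.03 over all probe sets). With so few arrays a group, this value cannot decide whether the numbers pair the arrays, and the labels do not say. With the replicate block 0 chains passed in limma and 4 had an unadjusted p under 0.05 (9.09%, against 9.58% of all genes). Lox, Fn1 and Mmp13 no longer passed with this block (adjusted p 0.152, 0.0704 and 0.0614 in limma).

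Averaging probe sets turned Col5a1 to 0.047. Centred arrays and quantile normalization turned Col6a6 (-0.025 and -0.026), Col24a1 (-0.020 and -0.020) and Col25a1 (-0.018 and -0.014), and centred arrays also turned Col9a2 (-0.054), so that 20 chains were higher and 24 lower with centred arrays. A left-out array turned the sign of 25 of the 44 chains and of 1 named pathway gene, which with all arrays had not passed the threshold: Col1a2 (-0.0029 to 0.18), Col3a1 (-0.18 to 0.35), Col4a2 (-0.29 to 0.052), Col4a4 (-0.23 to 0.17), Col4a5 (-0.10 to 0.21), Col5a1 (-0.18 to 0.13), Col5a2 (-0.088 to 0.069), Col5a3 (-0.34 to 0.29), Col6a1 (-0.10 to 0.29), Col6a2 (-0.32 to 0.22), Col6a4 (-0.15 to 0.064), Col6a6 (-0.10 to 0.16), Col8a1 (-0.22 to 0.15), Col9a2 (-0.057 to 0.057), Col11a2 (-0.27 to 0.022), Col13a1 (-0.21 to 0.17), Col15a1 (-0.0072 to 0.14), Col17a1 (-0.038 to 0.21), Col22a1 (-0.66 to 0.070), Col23a1 (-0.030 to 0.37), Col24a1 (-0.054 to 0.12), Col25a1 (-0.068 to 0.14), Col26a1 (-0.18 to 0.14), Col27a1 (-0.22 to 0.50), Col28a1 (-0.19 to 0.092), Itgb1 (-0.034 to 0.20). The cause of these turns was not tested. For dim chains the signal over background limits what can be seen.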

Other observations

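Markers of other cell types that the lines could hold had the following values. Endothelial markers had a median change of -0.002 over 10 genes, with 0 past the threshold in limma and 1 higher (Egfl7) at an unadjusted p under 0.05. Pericyte and smooth muscle markers had a median of 0.12 over 10 genes, with Mcam (0.47) higher and Notch3 (-0.35) lower at an unadjusted p under 0.05 and 0 past the threshold in limma. Adipocyte markers had a median of 0.01 over 7 genes, 6 of them dim in both groups, with 0 past the threshold in limma and 1 (Fabp4) at an unadjusted p under 0.05. Immune cell markers had a median of 0.12 over 13 genes, 11 of them dim in both groups. Cd68, a lysosomal protein of macrophages that other cells also make, was the 1 marker that passed (0.998, adjusted p = 0.0100 in limma). Over all genes 0.433% passed. Over the 13 epithelial markers the median was -0.09, and 0 passed in limma. Of these, Cldn4 was higher (0.39) and Krt14 (-0.51), Elf5 (-0.38) and Cldn7 (-0.22) were lower at an unadjusted p under 0.05. That is 30.8% of the epithelial list, against 10.6% of all genes. Such a p was found for 1 of 10 endothelial and 2 of 10 pericyte and smooth muscle markers. It was also found for 1 of 7 adipocyte (14.3%) and 1 of 13 immune cell markers (7.69%). The part of these cell types in the chain values was not tested.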
